A study of Mus musculus with 2 samples.

Results

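The 31 mitosis genes described here encode proteins that drive, build or survey cell division, and they were taken by symbol from the 32285 gene IDs in the files, where each symbol occurred once. They were read in droplet single-cell RNA libraries of 1 Dll1+ and 1 Dll1- mouse mammary tumor, from which live cells without the leukocyte protein CD45 had been sorted. The protein Dll1 binds Notch receptors on neighbouring cells. Both tumors were untreated controls and each group is a single tumor. Strain, age and tumor model were not stated in the labels, nor was the ground on which a tumor was labelled Dll1+ or Dll1-. The suspensions had been stained for CD31, CD45 and Ter119, so the shares of endothelial, leukocyte and erythroid cells can be set by the sort.

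In a dividing cell the kinase Cdk1 is switched on by cyclins A and B, and the chromosomes are then condensed, attached to a spindle and pulled apart. A checkpoint at the kinetochores holds the anaphase-promoting complex (APC/C), a ubiquitin ligase, in check until every chromosome is attached. The APC/C then marks cyclin B for destruction, and the cell is cleaved at the spindle midzone. Most of these genes are transcribed late in the cycle, through promoter elements called CHR and CCAAT boxes that bind the DREAM and MuvB complexes and the factor NF-Y. Their RNA is therefore widely used as a sign of proliferating cells in tumors.

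The files hold no reads of promoters, and the sequences are shown because the members share these elements. RefSeq (GRCm38.p6) had an entry for 25 of the 31 members, in windows of 300 bases from 250 before to 50 after the start. A CHR element (TTTGAA or TTCGAA, either strand) lay in the windows of 21 of the 25 members (84%), against 21.7% of the 27025 genes with an entry. CCAAT, on either strand, was found in 21 of the 25 (84%) against 41.1%, at least 2 copies in 56% against 13.1%, and both elements in 76% against 8.61%. Of the 25 members, 20 had a CHR match within 50 bases of the start. The last A of TTTGAA or TTCGAA can also be the first letter of ATTGG, and a match is a description of letters only. The 100 bases before the start are printed below for 6 members with a match and for Nusap1, whose window held neither, with the CHR and CCAAT letters in capitals (on the other strand they read TTCAAA or TTCGAA, and ATTGG).

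Cdk1 (chr10:69352913-69353012, minus strand): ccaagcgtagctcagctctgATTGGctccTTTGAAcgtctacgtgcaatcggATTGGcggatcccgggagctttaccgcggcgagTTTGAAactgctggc
Ube2c (chr2:164769829-164769928, plus strand): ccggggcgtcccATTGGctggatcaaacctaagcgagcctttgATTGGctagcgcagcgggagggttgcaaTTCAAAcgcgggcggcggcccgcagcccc
Cdc20 (chr4:118437344-118437443, minus strand): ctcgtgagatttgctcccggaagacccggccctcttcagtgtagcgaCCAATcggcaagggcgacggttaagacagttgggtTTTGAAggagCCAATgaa
Top2a (chr11:99024190-99024289, minus strand): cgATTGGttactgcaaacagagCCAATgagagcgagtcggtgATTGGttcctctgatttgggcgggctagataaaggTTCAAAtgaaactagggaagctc
Kif11 (chr19:37376282-37376381, plus strand): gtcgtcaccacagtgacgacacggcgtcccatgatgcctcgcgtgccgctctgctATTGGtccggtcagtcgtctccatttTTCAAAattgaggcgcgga
Ccnb2 (chr9:70421555-70421654, minus strand): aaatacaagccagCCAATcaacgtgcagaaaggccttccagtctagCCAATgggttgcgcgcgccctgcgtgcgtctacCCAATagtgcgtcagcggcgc
Nusap1 (chr2:119618198-119618297, plus strand): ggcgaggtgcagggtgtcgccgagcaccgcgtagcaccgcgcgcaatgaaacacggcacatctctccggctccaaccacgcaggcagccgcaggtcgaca

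The Dll1+ library held 117230907 and the Dll1- library 135960457 UMIs (unique molecular identifiers, 1 per captured RNA molecule). After filtering 9685 and 10132 cells were left, with medians of 7882 and 9904 UMIs. Cells of both libraries were clustered together and named from marker genes. Epithelial-like cells made up 84.9% and 86.0% of the cells and held all 10 epithelial markers. Smaller classes were Krt5-led (365 and 315 cells), fibroblast-like (355 and 586), pericyte-like (377 and 175), endothelial-like (255 and 280) and macrophage-like cells (28 and 10). Dll1 itself was at 53.4 and 3.97 CPM (UMIs per 1000000 UMIs) in epithelial-like cells, in the direction of the labels. With 1 library per group there is no test. Intervals are 95% exact intervals of counting error, and a difference is counted where it reached 1.5-fold, which says nothing of the spread between tumors.

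In epithelial-like cells the 31 genes summed to 1090 CPM (1083 to 1097) in the Dll1+ library and 768 CPM (762 to 773) in the Dll1- library, a log2 ratio of 0.51. By the 1.5-fold rule the Dll1+ library was higher for 16 members and lower for 0, with 15 inside the fold and a median log2 ratio of 0.59. Among all 15267 genes measured in these cells 20.6% were higher and 5.88% lower, with a median of 0.20. The number of members past the fold was 7 with TMM scaling and 8 with 10 CPM added in place of 1, and in both 0 were lower. The share of all genes was not counted under these settings, so the 20.6% does not stand beside these numbers. Under TMM scaling the median log2 ratio was 0.34 for the members and -0.05 for all measured genes. TMM scaling shifts all genes by -0.26 on the log2 scale, and under it 23 of the 31 members kept a higher level in the Dll1+ library. All 31 members had at least 253 UMIs in each library.

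Among the cyclins and mitotic kinases 5 of 6 members were at least 1.5-fold higher in the Dll1+ library. Cdk1, the kinase that starts mitosis, was at 55.1 CPM (53.5 to 56.7) against 36.1 CPM (34.9 to 37.2). Its mitotic partners Ccnb1 and Ccnb2, the B cyclins, were at 39.0 against 24.4 CPM and 43.1 against 23.7 CPM. The gap was wider for Ccna2, the A cyclin that acts from S phase on, at 30.1 CPM (29.0 to 31.3) against 14.6 CPM (13.9 to 15.4). Plk1, a kinase of spindle poles and kinetochores, was at 19.0 against 11.7 CPM. Aurka, the spindle pole kinase, was the exception at 13.03 CPM (12.3 to 13.8) against 12.49 CPM (11.8 to 13.2), with overlapping intervals.

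The 3 members of the chromosomal passenger complex, which corrects wrong attachments and later acts in cleavage, were all past the fold. Its kinase Aurkb was at 16.9 against 9.08 CPM, the survivin gene Birc5 at 78.5 against 46.2 CPM, and the scaffold gene Incenp at 30.4 against 16.7 CPM. The spindle checkpoint kinases split. Ttk, which acts first at unattached kinetochores, was at 5.58 CPM (5.08 to 6.11) against 2.40 CPM (2.11 to 2.71), a log2 ratio of 0.95. Bub1 (7.26 against 6.08 CPM) and Bub1b (14.1 against 12.3 CPM) stayed under the fold.

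Neither APC/C gene passed the fold. Cdc20, the activator that the checkpoint restrains, was at 50.9 CPM (49.3 to 52.4) against 35.0 CPM (33.8 to 36.1). Ube2c, the ubiquitin enzyme that works with the APC/C, was at 136 CPM (133 to 138) against 144 CPM (142 to 146), so it was slightly lower in the Dll1+ library. Among centromere and kinetochore genes Cenpa, the centromeric histone, was past the fold at 51.8 against 34.0 CPM. The kinetochore motor gene Cenpe was just under it at 20.1 against 13.2 CPM. Cenpf (32.3 against 26.6 CPM) and Ndc80, whose protein holds microtubules (8.20 against 6.10 CPM), were closer to level.

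Spindle assembly genes were the nearest to level as a group, with a median log2 ratio of 0.03. Kif11, the motor that pushes spindle poles apart, was past the fold at 15.5 against 9.29 CPM. The microtubule factor genes Tpx2 (39.5 against 39.1 CPM) and Hmmr (25.0 against 24.2 CPM) were level within counting error. Nusap1, which bundles spindle microtubules, was lower in the Dll1+ library at 28.9 CPM (27.8 to 30.1) against 34.5 CPM (33.3 to 35.6). Nusap1 and Tpx2 lie on chromosome 2, as do Aurka, Bub1, Bub1b and Ube2c. These 6 members had a median log2 ratio of 0.04, against 0.66 for the other 25, and role was not told apart from position.

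Of 6 genes of the midzone and cytokinesis 3 were past the fold. Prc1, which crosslinks midzone microtubules, was at 46.2 against 26.5 CPM. The centralspindlin pair was also higher, with the motor gene Kif23 at 11.9 CPM (11.1 to 12.6) against 5.34 CPM (4.91 to 5.80) and Racgap1 at 29.7 against 15.1 CPM. The motor gene Kif20a (9.69 against 6.43 CPM), the scaffold gene Anln (12.3 against 9.09 CPM) and Ect2, the activator of RhoA (9.62 against 8.76 CPM), stayed under it. Among chromosome genes, the condensin gene Smc4 had the widest gap of all members, 78.6 CPM (76.7 to 80.6) against 32.4 CPM (31.3 to 33.5), a log2 ratio of 1.25. Top2a, the topoisomerase that untangles sister chromatids, was at 73.2 against 40.3 CPM, and the proliferation antigen gene Mki67 at 58.4 against 42.4 CPM, under the fold.

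**Figure D1:**
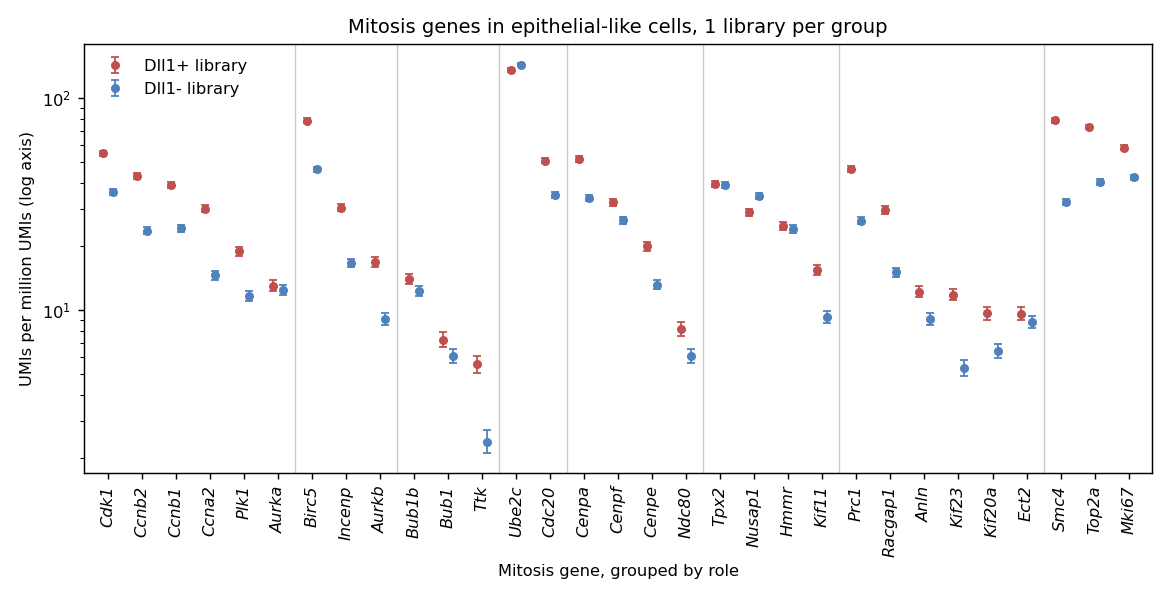
Level of each mitosis gene in epithelial-like cells, in CPM on a log axis, in the Dll1+ (red) and Dll1- (blue) library, with exact 95% Poisson intervals. Points are single libraries, and gray lines part the roles. Red lies above blue for all genes but Ube2c and Nusap1, with Aurka, Tpx2, Hmmr and Ect2 close to level, and TMM scaling puts 8 genes below in place of 2.

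Other genes of the cycle, from lists chosen with earlier results of these data known, were counted in the same cells. Of 44 other mitosis genes 25 were past the fold upward and 0 downward (median 0.64), from Spag5 (20.3 against 4.09 CPM) and Ncapd2 (20.98 against 7.65 CPM) to Spc25 (18.8 against 21.6 CPM) and Ckap2 (18.5 against 27.8 CPM). S phase genes gave 21 higher and 0 lower of 30 (median 0.68), with the helicase gene Mcm5 at 25.0 against 10.3 CPM and Ung, a repair glycosylase, at 13.04 against 5.40 CPM. At the low end of that list were Ccne1 (6.60 against 7.04 CPM) and Pcna (65.9 against 59.6 CPM). A list of chromatin genes that follow the cycle gave 10 higher and 0 lower of 18, with the DNA-bending protein gene Hmgb2 at 430 against 229 CPM and the histone chaperone gene Anp32e at 75.9 against 40.8 CPM. Its lowest genes were the tubulin gene Tubb4b, at 312 against 433 CPM, and Stmn1, whose protein destabilises microtubules, at 320 against 463 CPM.

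The lists of regulators are short, and their counts stand beside the 20.6% of all genes that were higher in these cells, from which they were not tested to differ. Of 16 cell cycle transcription factor genes 2 were higher and 0 lower, Rb1 at 46.8 against 24.3 CPM and E2f8 at 3.94 against 1.84 CPM, while Lin52 (2.78 against 2.71 CPM) and Lin37 (27.7 against 29.8 CPM) were near level. G1 genes gave 5 higher and 1 lower of 12. Ccnd1, the D cyclin that opens the cycle, was at 466 against 140 CPM and the inhibitor gene Cdkn2c at 16.5 against 4.80 CPM, while Cdk6 was at 29.6 against 42.5 CPM and the inhibitor gene Cdkn1a at 383 against 759 CPM. Genes of mitotic exit and APC/C control gave 4 higher and 1 lower of 14, with Fbxo5 at 8.82 against 4.92 CPM, Ccnf at 6.14 against 3.38 CPM, Anapc1 at 29.6 against 28.2 CPM and Wee1 at 133 against 223 CPM. All 7 Notch genes read beside them were higher, from Dll1 and Hey1 (14.6 against 3.37 CPM) to Myc (52.5 against 28.9 CPM) and Notch1 (101 against 60.1 CPM), but these genes had been chosen for the study's contrast.

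The members' higher sum in the Dll1+ tumor lay mostly in 1 group of cells. Epithelial-like cells were clustered again, with 165 cell cycle genes left out, and each cluster (a state) was named by its leading pair of genes. The Ptn and Rbp7 state held 1535 Dll1+ cells and 0 Dll1- cells. It was 18.7% of the Dll1+ epithelial-like cells and held 74.3% of their mitosis gene UMIs, at a summed level of 2772 CPM (2751 to 2793). The most common Dll1+ state, Prpmp5 and Cxcl10 (4276 cells), was at 204 CPM (199 to 209), Fgfbp1 and Aldh1a3 (689 cells) at 199 CPM, and Spp1 and Chil1 (205 cells) at 223 CPM. A state found in 1 library may be that library rather than a kind of cell.

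Each of the 31 members had its highest Dll1+ level in the Ptn and Rbp7 state, and Smc4 stood apart in how much of it was also found elsewhere. Top2a was at 195 CPM there and 9.83 CPM in the Prpmp5 and Cxcl10 state, Birc5 at 206 and 7.05 CPM, and Ccnb1 at 106 and 3.85 CPM. Smc4 was at 146 CPM there but still at 60.7 CPM in the Prpmp5 and Cxcl10 state, the highest level of any member in that state. The leading genes of the Ptn and Rbp7 state included Pclaf, a replication factor gene outside the lists left out, and Pdpn, which is in the fibroblast marker list. Its summed fibroblast marker level was 161 CPM, against 24.2 to 64.7 CPM in the other states of at least 50 cells. In it 0 of 9 fibroblast markers were at 0, as in the Prpmp5 and Cxcl10 state. Its epithelial marker sum was 4194 CPM, against 10066 to 17220 CPM in the other Dll1+ states of at least 50 cells and 9250 CPM over all Dll1+ epithelial-like cells. The part of these in the result was not tested.

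Without the Ptn and Rbp7 state, a division made after its level was seen, the direction turned. The sum in the remaining Dll1+ epithelial-like cells was 396 CPM (391 to 401) against 768 CPM, a log2 ratio of -0.95. Then 1 member was past the fold upward, Smc4 at a log2 ratio of 0.64, while 25 were lower and 5 inside the fold, at a median of -0.87. Over all genes 18.9% were higher and 5.95% lower in that comparison. Nusap1, at 9.53 against 34.5 CPM, and Ube2c, at 44.8 against 144 CPM, were the lowest of the members.

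In both states that each library filled with at least 50 cells, the members' sum was lower in the Dll1+ library. This held with the cell cycle genes left out of the clustering. With those genes kept, the states of the same names were higher in the Dll1+ library (154 against 134 CPM and 110 against 89.4 CPM). A state led by Ube2c and Nusap1 was then lower in it (4869 against 5944 CPM). The Lalba and Wap state, led by milk protein genes, held 1286 and 5391 cells and summed to 837 CPM (823 to 851) against 1016 CPM (1008 to 1023), a log2 ratio of -0.28. Past the fold there were 0 members upward and 4 downward (Nusap1, Ube2c, Bub1 and Tpx2), at a median of -0.22, while Ccna2 (23.6 against 19.98 CPM), Birc5, Smc4, Aurkb and Ttk were slightly higher and inside the fold. Over all genes 7.3% were higher and 3.51% lower. Those 4 genes lie on chromosome 2, with Bub1b and Aurka. The 6 members there summed to 192 against 328 CPM and the other 25 to 645 against 688 CPM, a log2 ratio of -0.09 (-0.12 to -0.06). The Lgals3 and S100a6 state (199 and 3018 cells) had few mitosis UMIs in either library, 87.4 CPM (74.8 to 102) against 217 CPM (212 to 222). Of the 30 members measured there 0 were higher and 21 lower, at a median of -1.04, against 19.3% higher and 5.99% lower over all genes. Of these 30, 3 had 0 UMIs in the Dll1+ cells. With them set at the level that a count of 0 allows, 3 UMIs or 1.53 CPM, 19 were lower and the median was -0.87.

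**Figure D2:**
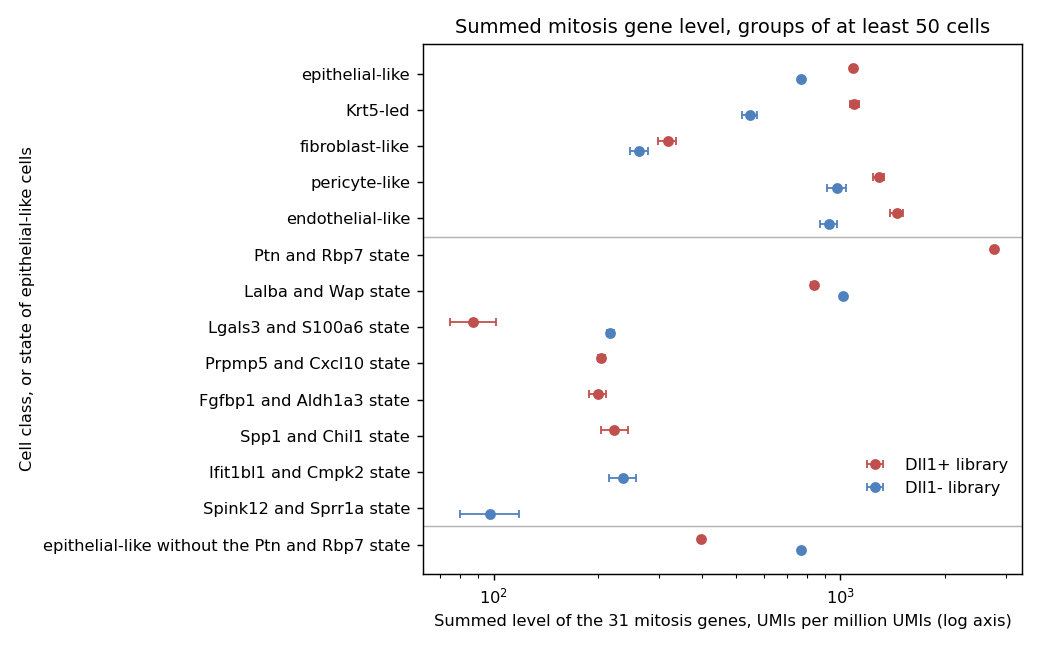
Summed level of the 31 mitosis genes, in CPM on a log axis, by cell class (top), by state of the epithelial-like cells (middle; groups of at least 50 cells) and without the Ptn and Rbp7 state (bottom), in the Dll1+ (red) and Dll1- (blue) library with exact 95% Poisson intervals. Red lies right of blue in the 5 classes and left of it in the 2 states that both libraries filled, and the Ptn and Rbp7 state at 2772 CPM lies far right of every other point.

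The 4 other classes of at least 50 cells also had higher mitosis sums in the Dll1+ library. Krt5-led cells, which carry basal keratins, summed to 1096 CPM (1066 to 1128) against 547 CPM (521 to 574), a log2 ratio of 1.00. The Dll1+ library was higher for 24 of the 31 members and lower for 0, at a median of 1.07, against 16.9% higher and 7.96% lower over all genes. Ccnb1 had the widest gap there, 40.1 against 12.5 CPM, and Cenpe was level at 18.2 against 19.4 CPM. The class was not made up alike in the libraries. It took in a shallow cluster (median of 2074 UMIs) of 33 Dll1+ and 0 Dll1- cells. The leading genes of that cluster held Krt15 and Krt17 but also the endothelial marker Kdr. Its part in the gap was not tested. Endothelial-like cells summed to 1454 CPM (1392 to 1519) against 924 CPM (873 to 978), with 16 higher, 0 lower and 11 between of 27 measured, against 9.93% and 4.43% over all genes. In those cells Ube2c was at 178 against 81.5 CPM and Nusap1 at 44.7 against 19.8 CPM, both past the fold, unlike in epithelial-like cells.

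Pericyte-like and fibroblast-like cells differed less between the libraries. Pericyte-like cells summed to 1288 CPM (1243 to 1334) against 974 CPM (916 to 1035), with 9 higher, 0 lower and 19 between of 28, where 17.8% of all genes were higher and 3.64% lower. This class, too, took in a shallow cluster (median of 1960 UMIs), with 62 Dll1+ cells and 1 Dll1- cell. Fibroblast-like cells summed to 317 CPM (299 to 337) against 262 CPM (247 to 278), with 6 higher, 0 lower and 19 between of 25, where 8.92% were higher and 5% lower. Among the 5 classes of at least 50 cells, fibroblast-like cells had the lowest level of 30 members in each library. In the Dll1+ library the highest level lay in endothelial-like cells for 16 members and in pericyte-like cells for 11, and in the Dll1- library for 10 and 11, with 9 highest in epithelial-like cells. Macrophage-like cells held only 21 and 12 mitosis UMIs, or 93.3 CPM (57.7 to 143) in the Dll1+ and 119 CPM (61.6 to 208) in the Dll1- library, with overlapping intervals.

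**Figure D3:**
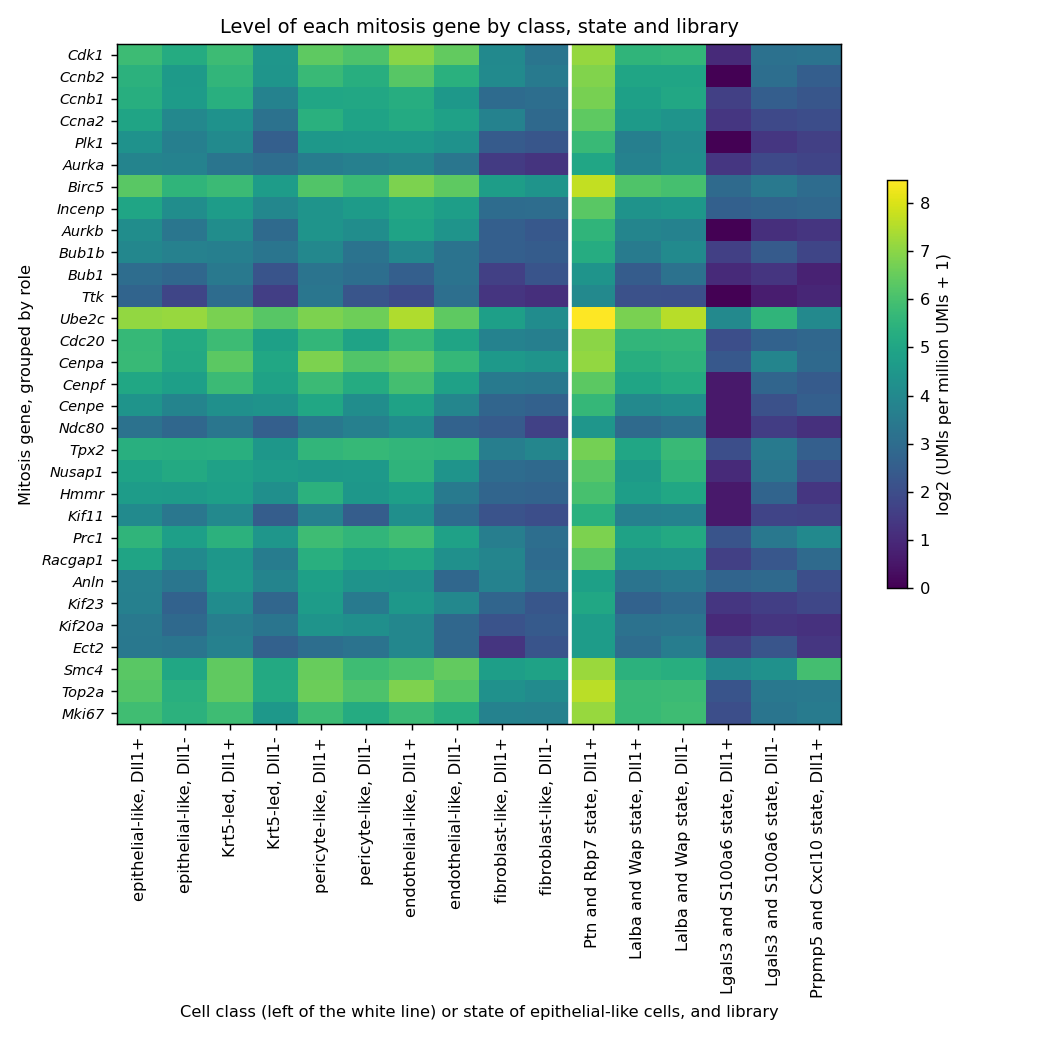
Level of each mitosis gene (rows, by role) as log2 of CPM plus 1, by cell class and library (left of the white line) and by state of the epithelial-like cells and library (right). The Ptn and Rbp7 column is the brightest for all 31 genes, the fibroblast-like columns are dark among the classes, and Smc4 stays bright in the Prpmp5 and Cxcl10 state, at 60.7 CPM.

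Counted cell by cell, the members marked a small share of cells. Each cell was thinned to 2000 UMIs, which left out 615 and 201 shallower epithelial-like cells, and cells with a UMI of at least 4 of the 31 members were counted. These were 659 of 7605 cells in the Dll1+ library (8.67%, exact 95% interval 8.04 to 9.32) and 505 of 8512 in the Dll1- library (5.93%, 5.44 to 6.46). Without thinning the shares were 15.7% and 10.9%. The count is a range, not a type of cell: 132, 102 and 81 Dll1+ cells had 3, 4 and 5 members, and 76, 63 and 52 Dll1- cells. In fibroblast-like cells, the larger class with the lowest sum, the shares were 2.34% (1.02 to 4.56) and 2.68% (1.51 to 4.39).

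The shares followed the states. In the Ptn and Rbp7 state 35.1% of cells (32.7 to 37.7) had at least 4 members, and that state held 78.5% of all such Dll1+ epithelial-like cells. In the Lalba and Wap state the shares were 7.88% (6.45 to 9.51) and 8.75% (8.01 to 9.55), with overlapping intervals, and that state held 91.9% of such Dll1- cells. In the Prpmp5 and Cxcl10 state it was 0.83% (0.57 to 1.17). The Lgals3 and S100a6 state had 0 of 181 Dll1+ cells, which allows a share of up to 1.66% (taken as 3 cells), and 1.23% (0.87 to 1.71) of Dll1- cells. Without the Ptn and Rbp7 state the Dll1+ share was 2.31% (1.95 to 2.72). Krt5-led cells had 11.7% (8.51 to 15.6) against 4.25% (2.28 to 7.16), and the intervals of the libraries overlapped for pericyte-like (11.2% and 5.99%) and endothelial-like cells (10.9% and 7.93%).

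**Figure D4:**
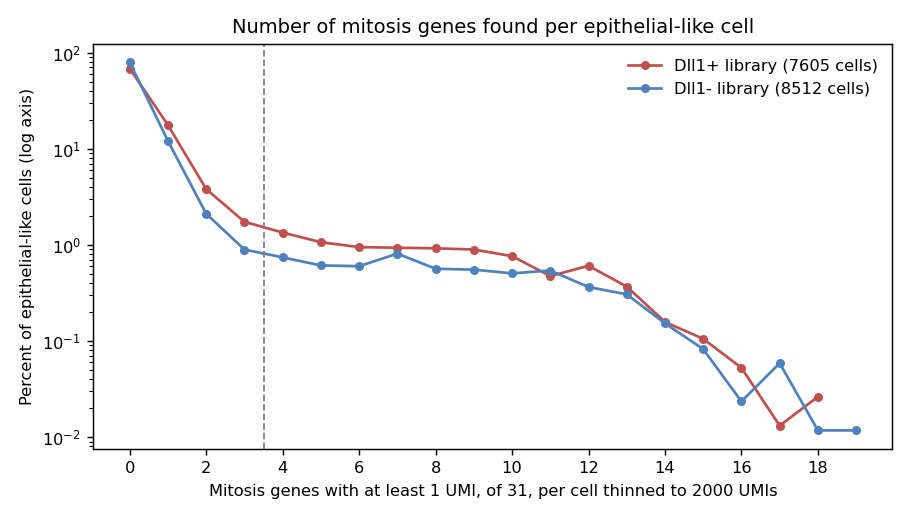
Percent of epithelial-like cells, on a log axis, by the number of the 31 mitosis genes with a UMI after thinning to 2000 UMIs, for 7605 Dll1+ (red) and 8512 Dll1- cells (blue). The dashed line marks the limit of 4 genes. Both curves drop steeply up to 3 genes and more slowly after that, and red lies above blue from 1 to 10 genes.

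The members came together in these cells. For each gene, the cells were taken that had at least 4 of the other 30 members, so that the gene did not choose its own cells. In the Dll1+ library between 45.3% (Smc4) and 91.7% (Nusap1) of a member's UMIs lay in those cells, with a median of 80.3%, and in the Dll1- library between 53.5% and 94.2%, with a median of 84.0%. Cells with at least 4 members held 16.6% and 10.4% of all UMIs of the thinned cells. Without thinning, a UMI of Mki67 was found in 90.2% and 91.8% of its cells so chosen and in 7.78% and 8.74% of the rest. The cells so chosen held more UMIs, and these Mki67 shares are not matched for depth. Outside the lists, the genes with the highest share of UMIs in cells with at least 4 members included 6 that were among the top 10 of both libraries: Esco2, Hist1h2ab, Iqgap3, Mxd3, Prr11 and Sapcd2. Mxd3, a partner gene of the Myc network, had 84.6% and 92.1% of its UMIs there. The others among the top 10 were Kif14, Neil3, Ankle1 and Parpbp in the Dll1+ library and Hist1h3c, Cit, Shcbp1 and Arhgap19 in the Dll1- library.

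Cells with at least 4 members held more UMIs and less Dll1. Their median was 19607 UMIs against 8212 in the rest of the Dll1+ epithelial-like cells, and 20542 against 10517 in the Dll1- library. Dll1 was at 22.6 CPM (20.1 to 25.2) in them against 59.1 CPM (57.3 to 60.9) in the rest of the Dll1+ library, and at 2.10 CPM (1.33 to 3.15) against 4.20 CPM (3.79 to 4.63) in the Dll1- library. Within the Ptn and Rbp7 state the levels were 24.6 against 60.0 CPM and within the Lalba and Wap state 4.70 (2.25 to 8.64) against 13.5 CPM, so the gap was found within both of these states. The cell cycle inhibitor gene Cdkn1a was at 178 against 424 CPM in the Dll1+ library, with 188 against 452 CPM within the Prpmp5 and Cxcl10 state, 436 against 561 CPM within the Lalba and Wap state and 124 against 137 CPM within the Ptn and Rbp7 state. Ccnd1 was at 749 against 411 CPM in the Dll1+ and 199 against 133 CPM in the Dll1- library. Within states of the Dll1+ library the gap was narrower. It was 828 against 693 CPM in Ptn and Rbp7, 406 against 316 CPM in Lalba and Wap, and 554 against 396 CPM in Prpmp5 and Cxcl10. In the Dll1- library it was 209 against 177 CPM in Lalba and Wap, and 42.1 (28.0 to 60.8) against 36.4 CPM in Lgals3 and S100a6.

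S phase genes were found in part of these cells. At least 4 of the 30 S phase genes had a UMI in 43.9% of the Dll1+ cells with at least 4 members (40.02 to 47.7) and in 36.2% of such Dll1- cells (32.04 to 40.6). Of all epithelial-like cells 6.79% and 3.68% passed that S phase count. A few members were lower in the cells that also had S phase genes: in the Dll1- library Cenpa was at 180 against 319 CPM, Ccnb2 at 119 against 202 CPM and Cdc20 at 210 against 342 CPM. Those 3 were the members past the fold there, and 0 passed it in the Dll1+ library, where Cenpa was at 204 against 302 CPM. The share of all genes past the fold between these cells was not counted, so these counts have nothing to be set against. Top2a, which also acts in replication, leaned the other way, at 426 against 313 CPM in the Dll1+ library, under the fold.

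The members were also compared in the cells that held them. These cells were chosen in both libraries by the UMIs of the other members, a choice that itself brings the libraries' levels together, so the values show how members stand to each other and not how strongly the cells express them as a whole. In epithelial-like cells with at least 4 of the other 30 members, the Dll1+ library was at least 1.5-fold higher for 0 members and lower for 5, the other 26 lay inside the fold and the median log2 ratio was -0.09, while 19.4% of all genes were higher and 9.23% lower. Mki67 was at 278 CPM (269 to 287) against 295 CPM (285 to 305), Top2a at 363 against 341 CPM and Cdk1 at 264 against 298 CPM. The lower members were Nusap1, at 162 CPM (156 to 169) against 314 CPM (304 to 325), Ube2c, at 745 CPM (731 to 760) against 1231 CPM (1210 to 1253), Aurka (65.5 against 107 CPM), Tpx2 (201 against 328 CPM) and Hmmr (134 against 205 CPM). Among such cells of the Lalba and Wap state Nusap1, Bub1, Ube2c and Tpx2 were lower, 0 members were higher and 27 lay between, against 8.16% of all genes higher and 7.64% lower. Within the Dll1+ library, such cells of the Ptn and Rbp7 state differed from those of the Lalba and Wap state in 1 of 31 members, Kif23, at 63.2 against 39.0 CPM, where 18.3% of all genes were higher and 9.93% lower.

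Of the 5 lower members, 4 lay on chromosome 2, while Hmmr lay on chromosome 11. On mm10 the members lie on 14 chromosomes, and 6 of them lie on chromosome 2: Bub1b (118598211 to 118641591, plus strand), Nusap1 (119618298 to 119651244, plus), Bub1 (127801122 to 127831865, minus), Tpx2 (152847964 to 152895321, plus), Ube2c (164769898 to 164778822, plus) and Aurka (172356190 to 172370535, minus). In cells with at least 4 other members the log2 ratios of these 6 ran from -0.95 to -0.44 with a median of -0.70, and those of the other 25 from -0.60 to 0.50 with a median of -0.01. Over all epithelial-like cells 0 of the 6 and 16 of the other 25 were past the fold upward, with medians of 0.04 and 0.66. In the Lalba and Wap state the medians were -0.73 and -0.14. In the Lgals3 and S100a6 state they were closer, at -1.13 for the 6 and -1.04 for the 24 others measured, with 4 and 17 past the fold downward. The members also split in Krt5-led cells, at medians of 0.44 and 1.13, and in pericyte-like cells, at -0.06 and 0.44. The medians were close in fibroblast-like cells, at 0.12 and 0.19, and in endothelial-like cells, at 0.69 and 0.76. By summed level the order in endothelial-like cells was the reverse, at log2 ratios of 0.80 for the 6 and 0.62 for the other 25. The division of the members by chromosome 2 was noticed in the data, and it was then read in genes that are not members.

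Genes of chromosome 2 in general were lower in the epithelial-like and Krt5-led cells of the Dll1+ library. Whether Krt5-led cells belong to the tumor was not tested. Over 963 other genes of chromosome 2 with at least 200 UMIs in epithelial-like cells the median log2 ratio was -0.16, while the medians of the other 18 autosomes ran from 0.19 to 0.28. In the Lalba and Wap state it was -0.20 against 0.09 to 0.19, in cells with at least 4 members -0.27 against 0.12 to 0.22, and in Krt5-led cells -0.43 against 0.04 to 0.14. In the remaining classes read, chromosome 2 lay within the range of the others. It was at 0.00 in fibroblast-like, 0.06 in pericyte-like and 0.01 in endothelial-like cells. The split of the members in pericyte-like cells thus had no counterpart in the other genes there. Within the Dll1+ library the Ptn and Rbp7 and the Prpmp5 and Cxcl10 states differed by a median of 0.10 on chromosome 2, inside the range of the other autosomes, from -0.06 to 0.14. What lies behind the chromosome 2 difference was not tested, and a single tumor per group gives it no replicate.

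**Figure D5:**
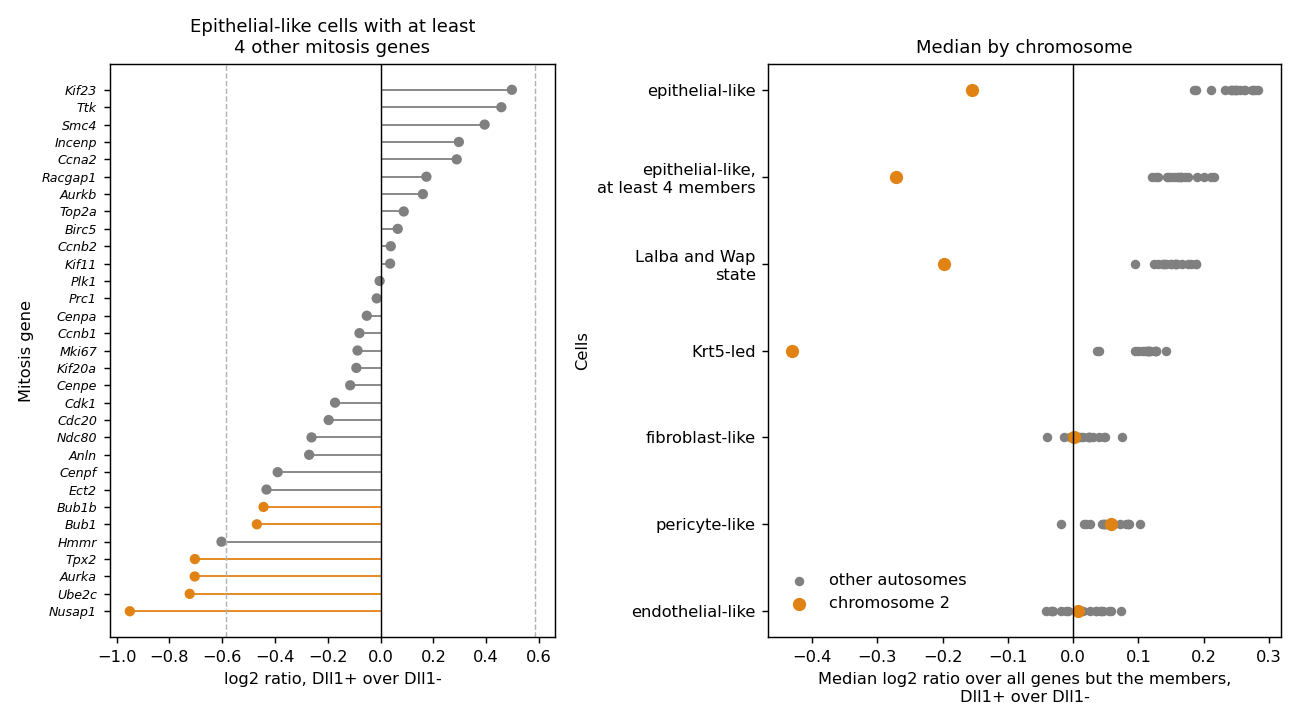
Left, log2 ratio (Dll1+ over Dll1-) of each mitosis gene in epithelial-like cells with at least 4 of the other 30 members, with the 6 members on chromosome 2 in orange and dashed lines at 1.5-fold. Right, median log2 ratio over all other genes of each autosome by group of cells, with chromosome 2 in orange. Orange lies apart to the left in epithelial-like and Krt5-led cells and among the gray points in fibroblast-like, pericyte-like and endothelial-like cells.

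Some counts are uncertain in what they hold. Ube2c overlaps Tnnc2, Nusap1 overlaps Oip5, Kif20a overlaps Cdc23, Cdc20 overlaps Elovl1, Prc1 overlaps Rccd1 and Ccna2 overlaps Exosc9, each a coding gene on the other strand, and no source used here says how the counting treated strand. On their own strand 8 members overlap a gene of any type, among them Smc4 with 2 such genes and 0 coding ones. What these overlaps do to the counts was not tested. The doublet step also bore on these genes: 41.2% of the Dll1+ and 25.9% of the Dll1- barcodes removed as likely doublets had at least 4 members without thinning, against 15.5% and 10.6% of those kept. The removed barcodes held more UMIs, with medians of 15956 against 7882 and 16300 against 9904, so these shares are not matched for depth. The 2 libraries shared 32 and 30 epithelial-like barcodes. Without them the summed log2 ratio was 0.49.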

How the data were processed

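The authors deposited raw UMI counts per gene and barcode. Per the file headers they come from Cell Ranger 4.0.0, and the submitters' processing notes name the build mm10. No source used here names the annotation release or the settings. The members, lists and markers were chosen with earlier results of these data known.

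Barcodes were kept at 1000 or more UMIs, 500 or more genes and a mitochondrial share of 20% or less (10581 of 13819 and 11121 of 13097). Scrublet's automatic limit marked 0 barcodes and had not worked, so the highest-scored were removed at 0.8% per 1000 barcodes (896 and 989). Clustering ran under Python 3.11.15 (scanpy 1.11.5; Leiden communities from leidenalg 0.10.2), with 2000 variable genes, 30 components, 15 neighbours and Leiden resolutions of 0.6 (classes) and 0.4 (states). A name needed at least 3 markers and 50% of its list, each in at least 20% of cells. UMIs were summed per library and group of cells. Each ratio is the log2 of Dll1+ over Dll1- after 1 was added to both CPM values, over genes with at least 30 UMIs. No length scaling was made, so levels are compared within a gene. Named genes were all members, the 2 highest and 2 lowest of each other list with at least 100 UMIs, and per library the 10 genes outside the lists with at least 200 UMIs and the highest share of them in cells with at least 4 members. Positions come from GENCODE M21, which held 99.6% of the gene IDs. On simulated counts for 15278 genes of epithelial-like cells, 99.5% of 200 genes changed 3-fold were recovered at the 1.5-fold limit. The simulation held counting error only, with no spread between cells or tumors, so it says nothing of that spread. The 3-fold change lay well past the limit, so the recovery says nothing of ratios near 1.5-fold. Alternatives were other cell filters, class resolution, scaling (TMM, edgeR 4.0.16), added CPM, thinning, states and limits on members per cell.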

Additional observations from a re-analysis of the deposited data

Results flagged for a closer look

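The summed mitosis gene level went in opposite directions in different groups of cells of the same 2 tumors. The log2 ratio of Dll1+ over Dll1- was 0.51 in epithelial-like, 1.00 in Krt5-led, 0.27 in fibroblast-like, 0.40 in pericyte-like and 0.65 in endothelial-like cells, but -0.28 in the Lalba and Wap state and -1.31 in the Lgals3 and S100a6 state, both of which are epithelial-like cells. In the Lalba and Wap state most of the gap lay in the 6 members on chromosome 2 (192 against 328 CPM), and the other 25 had a log2 ratio of -0.09. With the cell cycle genes kept in the clustering, the states of the same names were higher in the Dll1+ library, at 154 against 134 CPM and 110 against 89.4 CPM. The difference between these groups of cells was not tested, since each value rests on 1 library per tumor.

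A cluster led by Fabp7 and Olig1, of 12 Dll1+ and 11 Dll1- cells, was left outside the classes because its cells were shallow (medians of 1085 and 1112 UMIs). Its summed mitosis gene level was 3612 CPM (2681 to 4762; 50 UMIs) in the Dll1+ and 3353 CPM (2416 to 4532; 42 UMIs) in the Dll1- library, point values above that of every named state, with intervals that reach below the Ptn and Rbp7 state. Of these cells 11 and 11 had a barcode found in both libraries.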

How the results depend on the processing

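No paired analysis was possible because there is 1 library per group. The median log2 ratio of 0.59, the count of 16 members and the summed log2 ratio of 0.51 in epithelial-like cells kept their direction under the cell filters, class resolution, scaling and added CPM. The median was 0.34 with TMM factors, which shift all genes by -0.26, 0.44 with cells thinned first, 0.41 with 10 CPM added and 0.47 in the cells with the fewest other-class marker UMIs. The count was 7 with TMM factors and 8 with 10 CPM added, settings under which the share of all genes was not counted. The sum was 0.25 with TMM factors, 0.43 with cells thinned first, 0.37 in cells with few other-class marker UMIs, 0.54 with doublets left in, 0.56 at a mitochondrial limit of 10% and 0.49 without shared barcodes. With the 2 shared states weighted alike the direction turned, to a median of -0.31, a count of 0 and a sum of -0.42. Without the Ptn and Rbp7 state, chosen after seeing the data, they were -0.87, 1 and -0.95. In both cases the alternative leaves out that state by construction.

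Of the 16 members past the fold, 13 turned with the shared states weighted alike (Top2a -0.18, Cdk1 -0.25, Ccnb1 -0.36, Ccnb2 -0.31, Aurkb -0.010, Plk1 -0.51, Cenpa -0.39, Kif11 -0.23, Kif23 -0.29, Prc1 -0.42, Racgap1 -0.12, Ttk -0.13 and Incenp -0.15) and 15 without the Ptn and Rbp7 state (Top2a -0.79, Cdk1 -0.81, Birc5 -0.80, Ccnb1 -1.04, Ccnb2 -0.87, Aurkb -0.71, Plk1 -1.11, Cenpa -0.98, Kif11 -0.76, Kif23 -0.51, Prc1 -0.45, Racgap1 -0.51, Ccna2 -0.64, Ttk -0.35 and Incenp -0.61). In the other classes the sum with doublets left in was 1.10 in Krt5-led, 0.69 in fibroblast-like, 0.54 in pericyte-like and 0.88 in endothelial-like cells, and at a class resolution of 1.2 it was 0.84 in Krt5-led cells. The cause was not tested.

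The Dll1+ and Dll1- shares of cells were 9.67% and 6.20% with doublets left in, 11.4% and 8.02% in cells with few other-class marker UMIs, 14.2% and 8.93% at 2 members, 4.38% and 3.17% at 8 members, 13.3% and 7.74% thinned to 4000 UMIs, and 15.7% and 10.9% unthinned, with Dll1+ the higher in each pair. Without the Ptn and Rbp7 state the Dll1+ share was 2.31%, below the Dll1- share. With the cell cycle genes kept in the clustering, the highest state of each library was a new one, Ube2c and Nusap1 (119 Dll1+ and 534 Dll1- cells). It was at 4869 CPM in the Dll1+ library in place of 2772 CPM, and at 5944 CPM in the Dll1- library in place of 1016 CPM. The Rbp7 and Ptn state of that clustering (995 Dll1+ cells) was at 3635 CPM. Its Lalba and Wap state was at 154 CPM (148 to 161) against 134 CPM (131 to 137). Its Lgals3 and S100a6 state was at 110 CPM (97.0 to 124) against 89.4 CPM (86.0 to 92.9), so the direction turned in both. Few mitosis UMIs limit the values of the Lgals3 and S100a6 state (171 in 199 Dll1+ cells) and of macrophage-like cells (21 and 12).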
